A study of Drosophila melanogaster with 12 samples.

Results

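Heads of lithium-treated mutant flies were set against heads of untreated wild type flies, a comparison in which genotype and drug differ at once. It rests on the 3 arrays titled Shu 50 and the 3 titled CS 0, chosen by those titles from the 12 Affymetrix arrays of the series. Each array measured total RNA of whole heads of Drosophila melanogaster. CS_0 is the wild type with no treatment and Shu_50 the mutant named Shu at a dose of 50 mM. The other 6 arrays, 3 of the untreated mutant (Shu_0) and 3 of the wild type on 50 mM lithium (CS_50), were used to say which differences were there before the drug and which came with it. For Shu_50 the labels give the dose and the series title names lithium. The labels name no second allele, transgene or driver, and give no sex, age or length of treatment.

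The gene annotation lists Shu, or Shudderer, among the synonyms of para. That gene encodes the sodium channel that carries the rising phase of the action potential in flies. Lithium is a mood stabiliser known to inhibit the kinase GSK-3, Shaggy in flies, and enzymes of inositol phosphate recycling. Fly heads hold brain, eyes, muscle, cuticle and a layer of fat body, so in whole heads fewer cells of a type and less RNA per cell cannot be told apart.

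Values below are signals in the deposited intensity units, and differences are log2 differences from limma with their SE. A probe set was called at an adjusted p under 0.05 over the 11261 probe sets tested. The labels do not say whether the replicates are separate cultures, so p-values measure the spread between these samples, which may be technical. The para probe set 1627300_at read 72.6, 77.9 and 70.1 in CS_0, 80.7, 87.4 and 85.8 in CS_50, 87.1, 99.9 and 82.8 in Shu_0 and 118, 102 and 107 in Shu_50. All 3 Shu_50 arrays lay above all 3 CS_0 arrays (log2 0.53 ± 0.10 (SE), adjusted p = 0.00525), while neither the genotype step, Shu_0 against CS_0 (0.27 ± 0.10, adjusted p = 0.155), nor the lithium step, Shu_50 against Shu_0 (0.27 ± 0.10, adjusted p = 0.297), was called. The labels do not say that the mutation alters the amount of para RNA, so this level does not check the genotype.

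Photoreceptor markers stood high in every array, with a mean log2 signal over 11 genes between 11.52 and 11.77, and none of the 11, each by its probe set of highest mean, was called in Shu_50 against CS_0. Another probe set of rdgC, a phosphatase of rhodopsin, was called lower (-0.32 ± 0.08, adjusted p = 0.0293), but not without CS_0 replicate 2 (adjusted p = 0.0514), CS_0 replicate 3 (adjusted p = 0.14), Shu_50 replicate 1 (adjusted p = 0.0734) or Shu_50 replicate 2 (adjusted p = 0.104). The mean over 9 neuronal markers lay between 9.05 and 9.20 in all 12 arrays. Of these 9, 2 were called higher in Shu_50 against CS_0, para among them, and 1 without CS_0 replicate 3. Their median was -0.0152. The 5 tested markers of ovary and chorion stood out in CS_0 replicate 2 (mean log2 6.05) and Shu_0 replicate 2 (6.03) against 3.82 to 4.87 in the other arrays. Shu_50 stood at 3.87 to 4.17 on these markers, and none was called in Shu_50 against CS_0. In the lithium step 1 of the 5 was called lower. The part of these markers in the falls of dim probe sets was not tested.

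On the first principal component, with 18.1% of the variance, all 6 wild type arrays had negative scores and all 6 mutant arrays positive ones. On the second component the untreated arrays scored 7.4 to 11.1 and the treated arrays -12.8 to -3.87. The extremes of the first component were CS_0 replicate 3 at -20.5 and, on the other side, Shu_0 replicate 1 at 18. The former is one of the 3 reference arrays of every difference from the untreated wild type. Counts are therefore given with all arrays and without these.

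**Figure D1:**
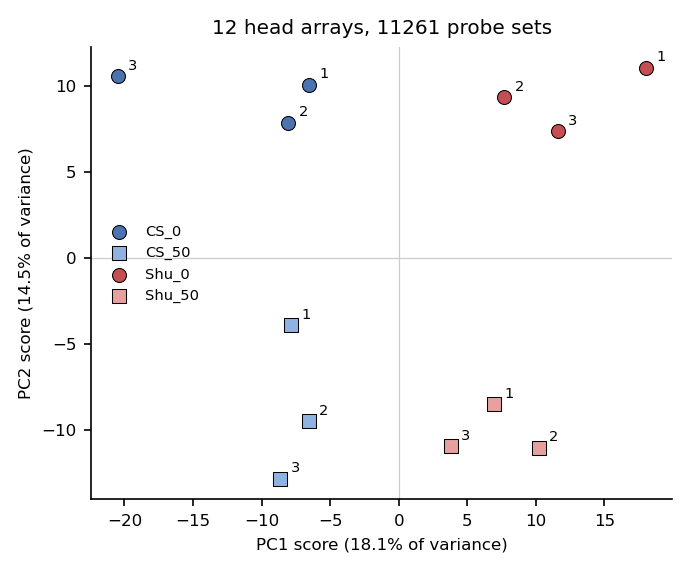
Scores of the 12 arrays on the first and second principal components of the log2 signals; circles are untreated and squares treated, and numbers are replicates. Shu_50 lies opposite CS_0 on both axes, with CS_0 replicate 3 at -20.5 on the first.

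The treated mutant differed from the untreated wild type at 688 of 11261 probe sets, 350 higher and 338 lower, which named 581 genes. That is 6.11% of the probe sets tested, 3.11% higher and 3.00% lower. Of the 688, 39 differed by more than 2-fold. At an unadjusted p under 0.05 by limma there were 2282. The arrays of the groups did not overlap for 24.7% of all probe sets, 12.1% with Shu_50 higher and 12.6% with it lower. Without CS_0 replicate 3 there were 379 calls, and without Shu_50 replicate 1 there were 428.

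The other comparisons share arrays with this one, so their values are given side by side and not as support. Shu_0 against CS_0 had 570 calls (5.06%), 238 higher (2.11%) and 332 lower (2.95%). Shu_50 against Shu_0 had 209 calls (1.86%), 136 higher (1.21%) and 73 lower (0.648%). CS_50 against CS_0 had 182 (1.62%), 112 higher (0.995%) and 70 lower (0.622%). Shu_50 against CS_50 had 57 (0.506%), 37 higher (0.329%) and 20 lower (0.178%). The count of Shu_0 against CS_0 fell to 154 without CS_0 replicate 3, to 129 without Shu_0 replicate 1, to 260 without Shu_0 replicate 3 and to 31 without the first pair of these together. That of Shu_50 against Shu_0 was 127 without Shu_0 replicate 1. That of CS_50 against CS_0 was 94 without CS_0 replicate 3, 112 without CS_0 replicate 1, 84 without CS_50 replicate 2 and 76 without CS_50 replicate 3. For Shu_50 against CS_50 it was 30 without CS_50 replicate 3 and also 30 without Shu_50 replicate 1.

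Distance was also described with no threshold, as the root mean square log2 difference over all tested probe sets beyond the standard error. It was 0.196 ± 0.0202 (jackknife SE over arrays) for Shu_50 against CS_0 and 0.184 ± 0.0320 for Shu_0 against CS_0. It was 0.147 ± 0.0102 for Shu_50 against Shu_0, 0.135 ± 0.0255 for CS_50 against CS_0 and 0.123 ± 0.0166 for Shu_50 against CS_50. The first pair of values, which share the CS_0 arrays, differed by less than either SE. These SE are of single distances and do not measure the error of their difference, which was not tested.

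The 688 calls were sorted by the steps that lead from CS_0 to Shu_50. Of them, 236 were called the same way in the genotype step and not in the lithium step, 124 the same way in the lithium step and not in the genotype step, 9 the same way in both and 316 in neither. For 2 the genotype step had the same and the lithium step the opposite direction, and for 1 it was the other way round. Seen the other way, of the 570 genotype differences, 247 remained in Shu_50 against CS_0 with the same sign, 322 were no longer called and 1 was called with the opposite sign. The 124 called in the lithium step and not in the genotype step are named added differences below. A lost call alone does not show a change.

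The class counts changed when the outlying arrays were left out. Both arrays were picked as extremes of the component that parts the genotypes. Both enter the genotype step, while only Shu_0 replicate 1 enters the lithium step. The fall in genotype calls was thus partly set by this choice, and the counts do not rank the classes by stability. Without Shu_0 replicate 2 alone, the genotype step had 691 calls. Without CS_0 replicate 3 and Shu_0 replicate 1 together there were 87 added differences in place of 124, 26 that remained, 5 no longer called and 2 with the steps opposed, a class described below. With eBayes lacking its intensity trend the added differences numbered 60. The remaining differences numbered 87 without CS_0 replicate 3 alone, 98 without Shu_0 replicate 1, 138 without Shu_0 replicate 3 and 150 without Shu_50 replicate 1. Those no longer called numbered 67, 31 and 121 without CS_0 replicate 3, Shu_0 replicate 1 and Shu_0 replicate 3.

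**Figure D2:**
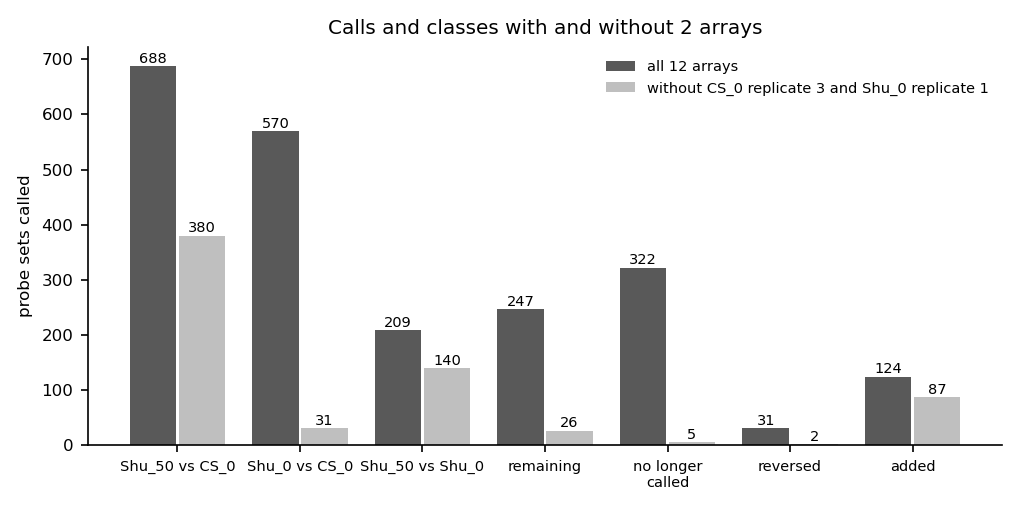
Bars give the number of probe sets called (vertical axis, from 0) in 3 comparisons and in the 4 classes, with all 12 arrays (dark) and without CS_0 replicate 3 and Shu_0 replicate 1 (light). Calls of Shu_0 against CS_0 go from 570 to 31, remaining differences from 247 to 26 and added differences from 124 to 87. Both arrays enter Shu_0 against CS_0, so these falls do not rank the classes by stability.

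Differences added by the drug comprised 87 higher and 37 lower probe sets naming 104 genes. List, which encodes a transporter of the SLC6 group for amino acids, led them. Its probe set 1636594_at read 104, 131 and 99.3 in CS_0, 622, 658 and 672 in CS_50, 101, 108 and 104 in Shu_0 and 693, 752 and 700.2 in Shu_50. All 6 treated arrays lay far above all 6 untreated ones. List was 6.18-fold higher in Shu_50 than in CS_0 (log2 2.63 ± 0.09 (SE), adjusted p = 1.18e-11). The genotype step was -0.08 ± 0.09 (adjusted p = 0.679) and the lithium step 2.71 ± 0.09. A second probe set, 1632986_a_at, gave 2.55 ± 0.12 (adjusted p = 9.36e-10), and the dim 1626311_at gave 0.02 ± 0.29 (adjusted p = 0.98).

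Arc1, a retrotransposon-derived gene whose protein forms capsids that carry RNA between cells, read 899.6, 868 and 776 in CS_0, 1472, 2038 and 2444 in CS_50, 1111, 974 and 1143 in Shu_0 and 3705, 3495 and 3552 in Shu_50 at probe set 1639180_at. The Shu_50 arrays were the highest of all 12, the CS_50 arrays came next, and no Shu_50 array overlapped another group. Arc1 was 4.21-fold higher than in CS_0 (log2 2.07 ± 0.12 (SE), adjusted p = 3.34e-08), and 0.88 ± 0.12 above the wild type on lithium (adjusted p = 0.00163). Its other probe set, 1639694_s_at, gave 2.18 ± 0.16 (adjusted p = 2.79e-07). The difference between the lithium effects in the mutant and in the wild type, tested as an interaction, was 0.54 ± 0.18, adjusted p = 0.652 and 1.07 ± 0.22, adjusted p = 0.391 at these probe sets and was not called. Arc2, its neighbour in the Arc family, rose by 1.06 ± 0.18 (adjusted p = 0.00166) from a dim 26.1 ± 6.43 (SD, n = 3).

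CG8112, which the annotation also lists as ACAT1, read 645, 567 and 613 in CS_0, 805, 751 and 839 in CS_50, 617, 664 and 679.6 in Shu_0 and 1345, 1182 and 1182 in Shu_50. The Shu_50 arrays stood above every other array. It rose by 1.02 ± 0.07 (adjusted p = 1.74e-07), with 0.91 ± 0.07 in the lithium step and 0.39 ± 0.07 for lithium in the wild type. Mal-B2, a maltase of sugar digestion, rose by 0.62 ± 0.06 (adjusted p = 6.11e-06). CG7763 (1.46), CG15784 (1.26) and the cytochrome P450 Cyp309a1 (1.36) were further large rises called in the lithium step. Ugt37A3, a glycosyltransferase, was higher by 1.74 ± 0.43 (adjusted p = 0.0226), but was not called without CS_0 replicate 2 (adjusted p = 0.0703), CS_0 replicate 3 (adjusted p = 0.0625) or Shu_50 replicate 2 (adjusted p = 0.104).

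**Figure D3:**
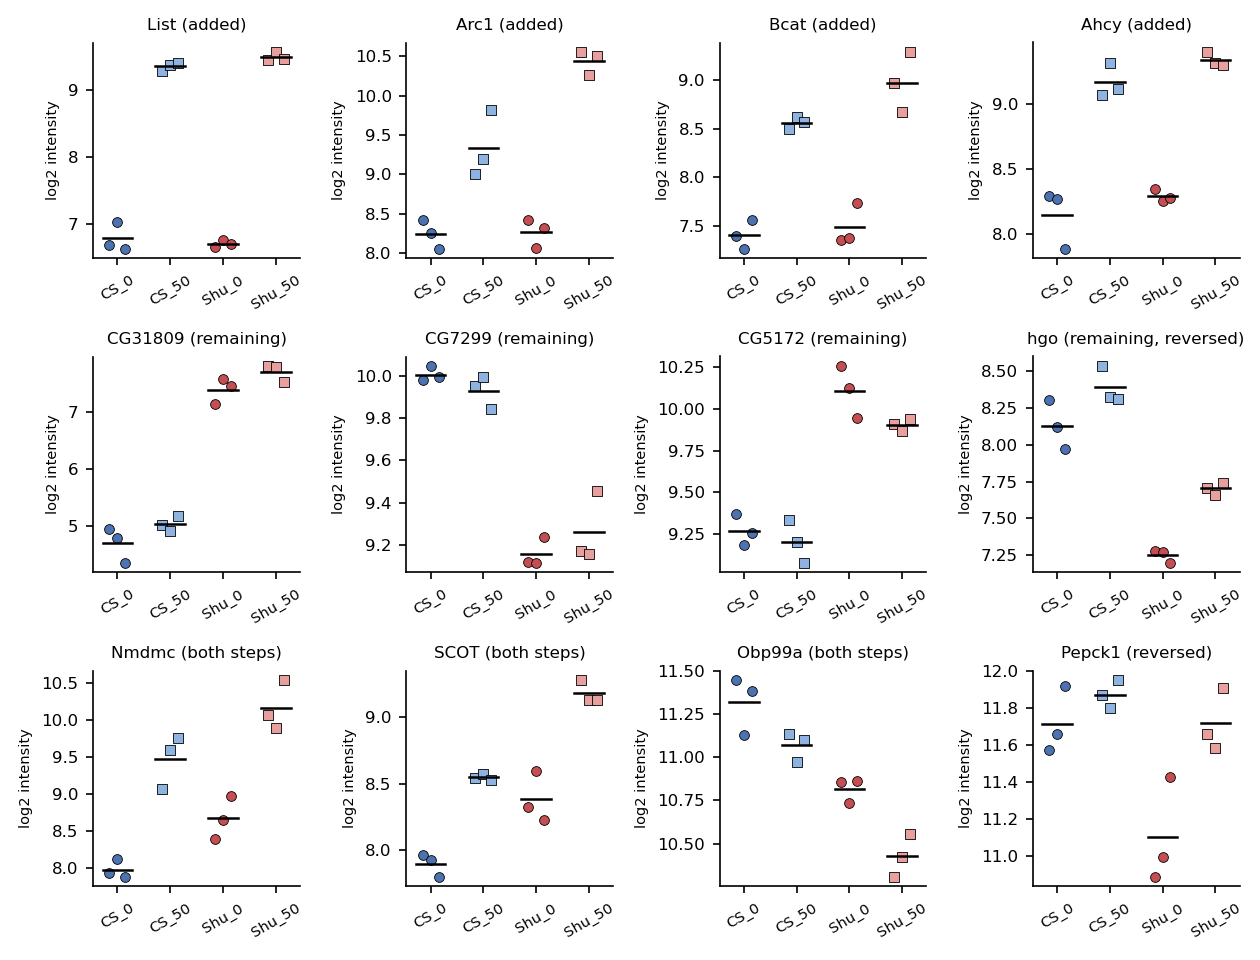
Log2 signal (vertical axis) of 12 genes in every array of the 4 groups; points are arrays and lines are group means, and each panel names the gene's class (for List and Arc1, the probe set of largest difference). List, Arc1, Bcat and Ahcy stand high in treated arrays, CG31809, CG7299 and CG5172 part by genotype, and Nmdmc, SCOT and Obp99a move with both.

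Falls were fewer among the added differences. CG5653 read 158, 152 and 182 in CS_0, 100.2, 91.8 and 96.2 in CS_50, 169, 188 and 185 in Shu_0 and 70.6, 75.5 and 94.6 in Shu_50. Treated arrays of both genotypes lay below all untreated ones (log2 -0.99 ± 0.11 (SE), adjusted p = 2.86e-05). CG7227, a scavenger receptor relative of CD36, fell from 79.7 ± 1.64 (SD, n = 3) in CS_0 to 35.5 ± 9.24 (SD, n = 3) in Shu_50 (log2 -1.07 ± 0.16 (SE), adjusted p = 0.00056). The heat shock protein gene Hsc70-1 fell (-0.48 ± 0.07, adjusted p = 0.000397), as did Nepl15 of the neprilysin peptidases (-0.52 ± 0.09, adjusted p = 0.00276). Of the 124 added probe sets, 50 stayed in the class under every alternative counted here, and 40 of those 50 were higher. The 60th percentile filter and the fit on the compared arrays alone were not counted.

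The lithium effect in the mutant and the lithium effect in the wild type rest on comparisons that share no array. Of the 209 lithium calls in the mutant, 201 had the same sign in the wild type and 98 were called there. Over all tested probe sets, the interaction was called at 1 probe set and at none of those chosen by the naming rule given below. It was not looked up for genes named outside that rule. By limma's unadjusted p under 0.05 it stood at 758 of the 11261 tested. A share of 0.05 would pass that threshold on average with no interaction at all.

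Differences that remained comprised 102 higher and 145 lower probe sets naming 212 genes. The largest rise among them was CG31809, and the largest fall, CG9377, is described with the other falls. Probe set 1641412_at of CG31809 names that gene alone, while probe set 1630244_s_at, also in this class, names both CG31809 and CG31810, so the signal of the pair may be shared. Probe set 1641412_at read 30.8, 27.5 and 20.4 in CS_0, 32.3, 29.9 and 36.2 in CS_50, 141, 192 and 176 in Shu_0 and 224, 223 and 184 in Shu_50. All 6 mutant arrays lay above all 6 wild type arrays, on lithium and off it. The difference was 2.44 ± 0.15 in the untreated mutant (adjusted p = 1.11e-07), 2.75 ± 0.15 in the treated mutant (adjusted p = 5.88e-09) and 2.47 ± 0.15 with both genotypes on lithium.

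CG7299 read 1009, 1056 and 1021 in CS_0, 992, 1019.7 and 918 in CS_50, 556, 555 and 604 in Shu_0 and 576, 572 and 701 in Shu_50. The mutant arrays lay below all wild type arrays. The difference from CS_0 was -0.84 ± 0.07 in Shu_0 and -0.74 ± 0.07 in Shu_50 (adjusted p = 1.43e-05 and 1.15e-05). With both genotypes on lithium it was -0.66 ± 0.07 (adjusted p = 0.000249). The pairs of values below are likewise those of Shu_0 and Shu_50, each against CS_0. CG5172 went the other way, at 0.83 ± 0.08 and 0.63 ± 0.08 (adjusted p = 3.46e-05 and 0.000124). Vajk2, of a family of cuticle proteins, stood at 0.73 ± 0.08 and 0.76 ± 0.08 (adjusted p = 0.00012 and 2.01e-05). Rab3-GEF, an exchange factor for the synaptic vesicle GTPase Rab3, was lower (-0.50 ± 0.06 and -0.42 ± 0.06, adjusted p = 0.000189 and 0.000317), and CG4962 was higher (0.57 and 0.40). With both genotypes on lithium the differences were 0.69 for CG5172, 0.48 for Vajk2, -0.32 for Rab3-GEF and 0.28 for CG4962. The last was not called (adjusted p = 0.077). CG17364 was lower in Shu_0 and Shu_50 at 1 probe set (-0.85 and -1.12). At 1636833_at it was called in Shu_50 against CS_0 (-0.85, adjusted p = 0.00578) and not in Shu_0 against CS_0 (-0.44, adjusted p = 0.146). At 1628021_at it was called in neither (-0.0866, adjusted p = 0.845, and 0.0938, adjusted p = 0.831).

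Without the 2 outlying arrays 25 of the 247 remaining probe sets were still in the class, and all the genes of the last paragraph, with CG31809, were among them. Under every alternative other than the 60th percentile filter and the fit on the compared arrays alone, 20 remained. CanA-14F, a calcineurin catalytic subunit, was also among the 20 through the dim probe set 1623931_s_at, which read 33.5, 26.0 and 39.6 in CS_0 and 82.2, 95.7 and 85.0 in Shu_50 (log2 1.27 ± 0.15 (SE), adjusted p = 8.85e-05). Its brighter probe set 1625316_s_at pointed the other way, with a mean of 276 in CS_0 and 215 in Shu_50 (log2 -0.35, adjusted p = 0.018), so the direction of CanA-14F differs between its probe sets. More than 1 probe set was tested for 82 of the called genes, and for 28 of these the signs were opposite. In 75 of the 82 at least 1 probe set was not called. The opposing call of CanA-14F was lost without CS_0 replicate 3 (adjusted p = 0.0939) and without Shu_50 replicate 2 (adjusted p = 0.0793).

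Genotype differences can also be followed with no shared array, from Shu_0 against CS_0 to Shu_50 against CS_50. Of the 570 untreated differences, 521 (91.4%) had the same sign on lithium and 39 were called there, with a median size of 0.376 untreated and 0.173 on lithium in the same direction. Of the 57 differences on lithium, 56 had the same sign untreated, with medians of 0.495 on lithium and 0.419 untreated. Each list was chosen by its size in the comparison named first, so the drop in the median is not a result.

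Some genotype differences were smaller in the treated mutant, and for 31 probe sets naming 22 genes the lithium step was called in the direction opposite to the genotype step. Both steps share the Shu_0 arrays with opposite sign. The class held 16 without CS_0 replicate 3, 4 without Shu_0 replicate 1, 19 without Shu_0 replicate 3, 16 without Shu_50 replicate 1, 54 without Shu_50 replicate 2 and 18 without Shu_50 replicate 3. Acp65Aa, a cuticle protein gene, read 149, 145 and 189.6 in CS_0, 110.4, 98.6 and 107 in CS_50, 286, 276 and 332 in Shu_0 and 133, 160.4 and 156 in Shu_50. The Shu_0 arrays stood above all others, and the Shu_50 arrays overlapped those of CS_0. It was 0.87 ± 0.11 in the genotype step (adjusted p = 0.000442), -0.96 ± 0.11 in the lithium step (adjusted p = 7.06e-05) and -0.10 ± 0.11 in the treated mutant against CS_0 (adjusted p = 0.687).

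The gene hgo, which encodes homogentisate 1,2-dioxygenase of tyrosine breakdown, was lowered in the mutant and partly higher again on the drug. It read 316, 278 and 251 in CS_0, 370.5, 320.3 and 318 in CS_50, 155, 154 and 147 in Shu_0 and 209, 202 and 214 in Shu_50. The Shu_50 arrays lay between those of Shu_0 and CS_0 and overlapped neither. The genotype step was -0.86 ± 0.09 (adjusted p = 5.36e-05), the lithium step 0.44 ± 0.09 (adjusted p = 0.00977) and the remaining difference -0.42 ± 0.09 (adjusted p = 0.00721). Pepck1, the entry enzyme of gluconeogenesis, stood at -0.61 ± 0.12 in the genotype step and 0.61 ± 0.12 in the lithium step, with 0.00 ± 0.12 left. Its genotype call was lost without CS_0 replicate 3 (adjusted p = 0.0604) and without Shu_0 replicate 1 (adjusted p = 0.0657), and its lithium call without Shu_0 replicate 1 (adjusted p = 0.0723) and Shu_50 replicate 3 (adjusted p = 0.0586).

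Among genotype differences no longer called were SK, a calcium-activated potassium channel gene, and Cyp6a2, a cytochrome P450 of insecticide resistance. Against CS_0, SK stood at -0.54 ± 0.09 in Shu_0 and -0.27 ± 0.09 in Shu_50 (adjusted p = 0.0029 and 0.071). Cyp6a2 stood at -0.84 ± 0.14 and -0.49 ± 0.14 (adjusted p = 0.00454 and 0.0537). At these probe sets the lithium step was not called (adjusted p = 0.151 and 0.316). A second probe set of SK, 1627752_s_at, belonged to the class with opposed steps, at -0.30 in the genotype step (adjusted p = 0.0232), 0.32 in the lithium step (adjusted p = 0.0249) and 0.0165 against CS_0 (adjusted p = 0.931). Its genotype call was lost without CS_0 replicate 1 (adjusted p = 0.0509), 2 (adjusted p = 0.0602) or 3 (adjusted p = 0.0712) or Shu_0 replicate 1 (adjusted p = 0.123), and its lithium call without Shu_0 replicate 1 (adjusted p = 0.152) or Shu_50 replicate 1 (adjusted p = 0.141) or 3 (adjusted p = 0.0846). Probe set 1635657_s_at was not called in either step. With both outlying arrays left out, the untreated differences of SK and Cyp6a2 were not called (adjusted p = 0.0811 and 0.112).

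**Figure D4:**
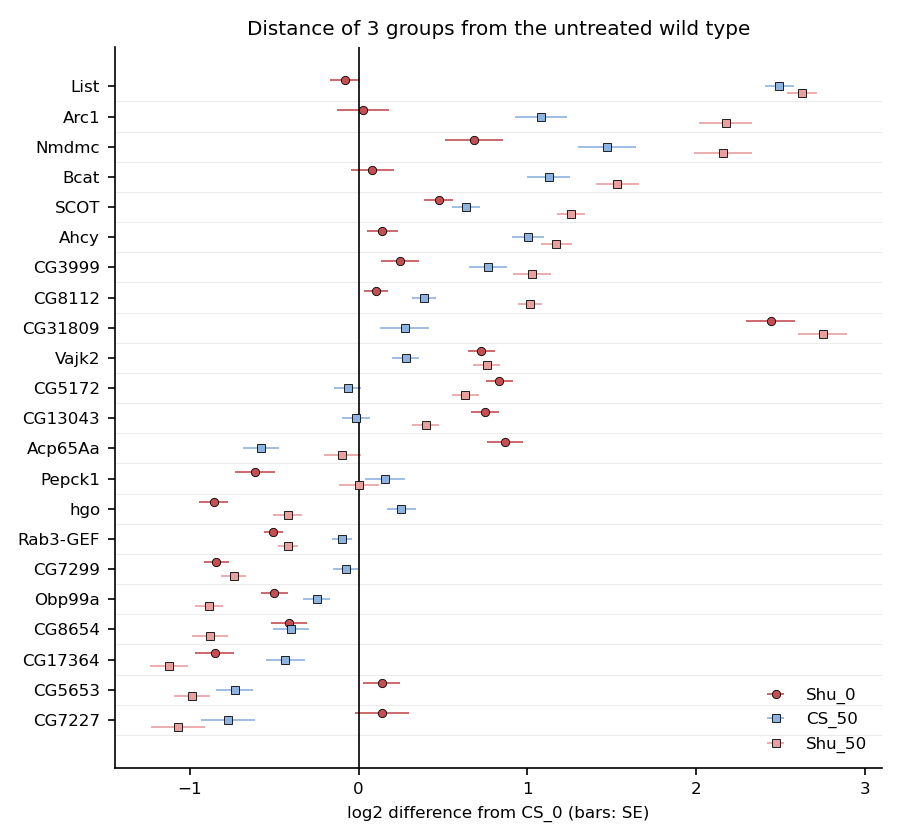
Log2 difference from CS_0 (horizontal axis) of Shu_0, CS_50 and Shu_50 for 22 genes; bars are SE. List, Bcat and Ahcy lie near 0 in Shu_0 and to the right in both treated groups, CG31809 lies to the right in both mutant groups, and hgo and CG13043 lie closer to 0 in Shu_50 than in Shu_0.

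For 9 probe sets both steps were called the same way. Without the 2 outlying arrays, 1 of the 9, CG42319, named here after its values were seen, was still called both in the genotype step and against CS_0. Nmdmc, a mitochondrial enzyme of folate metabolism, read 243, 277 and 235 in CS_0, 536, 769.6 and 858 in CS_50, 335, 400.5 and 500.2 in Shu_0 and 1065, 947 and 1478 in Shu_50. The groups rank CS_0, Shu_0, CS_50 and Shu_50 by mean, and the Shu_50 arrays lay above all others. Nmdmc was 4.47-fold higher than in CS_0 (log2 2.16 ± 0.17 (SE), adjusted p = 1.02e-06), with 0.68 ± 0.17 in the genotype step and 1.48 ± 0.17 in the lithium step. Its genotype call (adjusted p = 0.0322) was lost without CS_0 replicate 1 (adjusted p = 0.0753), CS_0 replicate 3 (adjusted p = 0.122), Shu_0 replicate 2 (adjusted p = 0.0513) or Shu_0 replicate 3 (adjusted p = 0.133). SCOT, which activates ketone bodies for use as fuel, read 250.0, 244 and 223 in CS_0, 373, 381 and 368 in CS_50, 321, 387 and 299.7 in Shu_0 and 620.0, 559 and 560.2 in Shu_50. Its steps were 0.47 ± 0.08 and 0.78 ± 0.08 and their sum 1.26 ± 0.08 (adjusted p = 1.27e-07). Its genotype call was lost without both outlying arrays (adjusted p = 0.0824). Obp99a, an odorant binding protein gene, fell by both steps (-0.50 ± 0.08 and -0.39 ± 0.08), from 2563 ± 289 (SD, n = 3) in CS_0 to 1382 ± 118 (SD, n = 3) in Shu_50 (adjusted p = 4.39e-06). The genotype call of Obp99a was lost without both outlying arrays (adjusted p = 0.0652), and its lithium call without Shu_0 replicate 1 (adjusted p = 0.0839), Shu_0 replicate 3 (adjusted p = 0.0816) or Shu_50 replicate 1 (adjusted p = 0.107).

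The largest fall of all was CG9377, called in the genotype step (adjusted p = 0.00197, or 0.0622 without both outlying arrays) and not in the lithium step (adjusted p = 0.73). It read 61.3, 69.7 and 78.1 in CS_0 and 2.78, 3.36 and 1.92 in Shu_50. CS_50 ranged from 5.01 to 26.1 and Shu_0 from 2.20 to 16.3. All arrays other than those of CS_0 were dim and the Shu_50 arrays were near the floor of the scale (log2 -3.10 ± 0.39 (SE), adjusted p = 0.000123), so the size depends on the offset. Single arrays decided the calls of several other large falls. The transcription factor gene slbo stood at -1.31 ± 0.30 (adjusted p = 0.014, or 0.0505 without CS_0 replicate 1). CG17378 stood at -0.88 ± 0.21 (adjusted p = 0.0182), and was not called without CS_0 replicate 3 (adjusted p = 0.0981) or Shu_50 replicate 2 (adjusted p = 0.0815). Its other probe set differed by -0.0123 (adjusted p = 0.955). The dim wcy (-1.28), CG9760 (-1.04), Fancd2 (-0.98) and Pis (-0.90) were each lost as calls without any 1 of the 3 CS_0 arrays, with adjusted p-values without CS_0 replicate 3 of 0.125, 0.132, 0.124 and 0.115, and each also without at least 1 array of Shu_50 and 1 of CS_50. Other probe sets were not called, at 0.15 and -0.0809 for Pis and 0.12 for wcy.

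Gene groups were counted over genes, each by its probe set of highest mean, beside all 8613 tested genes, whose median was 0.0002, with 282 called higher and 277 called lower. Of 10 genes of serine, glycine and one-carbon metabolism, 6 rose and none fell, with a median of 0.469, and without CS_0 replicate 3 the count was again 6. Besides Nmdmc these included the glycine decarboxylase CG3999, which read 182, 149 and 175 in CS_0 and 353, 302 and 396 in Shu_50 (log2 1.03 ± 0.11 (SE), adjusted p = 2.69e-05). Shmt, the enzyme that loads folate with one-carbon units taken from serine, read 1372, 1252 and 1142 in CS_0 and 2198, 2039.9 and 2396 in Shu_50 (log2 0.81 ± 0.07 (SE), adjusted p = 3.71e-06). The phosphoserine phosphatase aay rose by 0.63 ± 0.05 (adjusted p = 1.83e-06). In the genotype step 1 of the 10 was called, Nmdmc, and none without CS_0 replicate 3. The list's mean log2 signal was 9.03 to 9.09 in CS_0, 9.40 to 9.48 in CS_50, 9.09 to 9.24 in Shu_0 and 9.55 to 9.71 in Shu_50, with no overlap of either treated group with an untreated one.

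Amino acid breakdown and transamination had 14 higher and 1 lower of 24 genes, with a median of 0.299, and 8 higher and 1 lower without CS_0 replicate 3. Bcat, the transaminase that starts the breakdown of leucine, isoleucine and valine, read 168, 154 and 189 in CS_0, 361, 393 and 379 in CS_50, 164, 166 and 214 in Shu_0 and 499.5, 408 and 623 in Shu_50. The treated arrays lay above the untreated ones in both genotypes (log2 1.53 ± 0.13 (SE), adjusted p = 1.5e-06). CG8745, Tdh of threonine breakdown and Oat of ornithine breakdown rose by 0.73 ± 0.07, 0.70 ± 0.10 and 0.43 ± 0.08 (adjusted p = 4.39e-06, 0.00034 and 0.00312). The 1 lower gene was hgo. None of the 24 was called higher in the genotype step, and 8 were in the lithium step, 7 without Shu_0 replicate 1.

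In the methionine cycle and transsulfuration, 3 of 10 genes rose and none fell (2 without CS_0 replicate 3), with a median of 0.0396. Ahcy, which clears S-adenosylhomocysteine, read 313, 308 and 237 in CS_0, 538, 638 and 554 in CS_50, 326, 305 and 309.9 in Shu_0 and 675, 637 and 630.2 in Shu_50. The treated arrays lay above all untreated ones (log2 1.17 ± 0.09 (SE), adjusted p = 1.02e-06). Cth, cystathionine gamma-lyase, rose by 0.65 ± 0.11 (adjusted p = 0.0016). In purine and pyrimidine synthesis 3 of 14 rose and none fell, with a median of 0.0560. These were Gart (0.78 ± 0.08, adjusted p = 1.15e-05), Pfas (0.50 ± 0.08, adjusted p = 0.000763) and Prat2 (0.67 ± 0.15, adjusted p = 0.0141), enzymes of purine synthesis.

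Of 25 genes of sugar digestion and carbohydrate metabolism 5 rose and 2 fell, or 4 and 1 without CS_0 replicate 3, among them Pgi of glycolysis (0.38 ± 0.05, adjusted p = 0.000285) and Taldo of the pentose phosphate pathway (0.48 ± 0.07, adjusted p = 0.000646). Lipid and ketone metabolism had 3 of 17 higher and 3 lower, the latter 1 without CS_0 replicate 3. ACC, the first enzyme of fatty acid synthesis, rose by 0.28 ± 0.06 (adjusted p = 0.00566), and apolpp, the main lipoprotein of the hemolymph, fell (-0.46 ± 0.09, adjusted p = 0.00425). Glutathione transferases had 5 of 31 higher and none lower, 3 without CS_0 replicate 3. GstD2 read 57.0, 67.7 and 40.6 in CS_0 and 91.3, 152 and 114 in Shu_50, with no overlap (log2 1.03 ± 0.18 (SE), adjusted p = 0.00277). Among 61 cytochrome P450 genes, 1 rose and 4 fell (2 without CS_0 replicate 3), 1 of them Cyp18a1, which inactivates ecdysone (-0.54 ± 0.08, adjusted p = 0.000466). Of 13 genes of metal binding and iron 3 rose and 1 fell. MtnA, a metallothionein, rose by 0.37 ± 0.07 (adjusted p = 0.00456) and Tsf1, an iron carrier, fell (-0.86 ± 0.16, adjusted p = 0.00432), also at its second probe set (-0.46, adjusted p = 0.00978).

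Synaptic vesicle genes had none higher and 4 of 19 lower, with a median of -0.163, and 2 lower without CS_0 replicate 3. The list's mean log2 signal was 9.83, 9.87 and 9.98 in the 3 CS_0 arrays and 9.69 to 9.74 in Shu_50, the highest being CS_0 replicate 3. The groups did not overlap, and Shu_0 stood at 9.66 to 9.73. Dynamin, shi, which pinches vesicles off the membrane, read 1106, 1098 and 1121 in CS_0 and 901, 972 and 863 in Shu_50, with no overlap (log2 -0.28 ± 0.06 (SE), adjusted p = 0.00568). cpx, complexin, which clamps vesicle fusion, read 6227, 6368 and 8078 in CS_0 and 4291, 3561 and 5034 in Shu_50 (log2 -0.69 ± 0.14 (SE), adjusted p = 0.00798), and was not called without CS_0 replicate 3 (adjusted p = 0.0516). Other probe sets were not called, at 0.0572 and -0.18 for shi and -0.21 for cpx.

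Of 29 potassium, calcium and chloride channel genes, 1 was higher and 3 lower, and none was called without CS_0 replicate 3. Sh, the Shaker potassium channel, was lower (-0.37 ± 0.08, adjusted p = 0.0104, or 0.0548 without that array) at 1 probe set, while 6 others lay between -0.43 and 0.22 and were not called. Among 10 genes of the sodium channel and its regulators, para was higher and 2 were lower, or 1 without CS_0 replicate 3. The gene pum, a translational repressor known to act on para RNA, fell at 1 probe set (-0.33 ± 0.06, adjusted p = 0.00398) and was not called at another (-0.18, adjusted p = 0.325). Of 22 neuropeptide genes 3 fell. Ilp5, an insulin-like peptide of brain neurosecretory cells, read 374, 374 and 409.6 in CS_0 and 285, 288 and 289 in Shu_50, with no overlap (log2 -0.42 ± 0.06 (SE), adjusted p = 0.000381). Of 12 clock genes, 2 fell, vri (-0.39 ± 0.07, adjusted p = 0.00278) and Pdp1 (-0.42 ± 0.06, adjusted p = 0.000345). Of 10 lithium target genes 1 was called lower, Inos (-0.48 ± 0.13, adjusted p = 0.0359), and the call was lost without any single array of CS_0 replicate 2 (adjusted p = 0.103), CS_0 replicate 3 (adjusted p = 0.138), Shu_50 replicate 1 (adjusted p = 0.0656), Shu_50 replicate 2 (adjusted p = 0.105) or Shu_50 replicate 3 (adjusted p = 0.0828).

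Among 12 antimicrobial peptide genes 1 was higher and 2 were lower, the latter 1 without CS_0 replicate 3. DptB, a diptericin, was chosen after its values were seen. It stood at log2 3.54 in the untreated mutant (adjusted p = 0.0103, but 0.062 without CS_0 replicate 3 and 0.0674 without Shu_0 replicate 1) and at 1.35 in the treated mutant, where it was not called (adjusted p = 0.298). Averaged over the 12 genes, the log2 signal was 9.25 to 9.84 in CS_0, 10.01 to 10.54 in Shu_0 and 9.58 to 10.00 in Shu_50, so Shu_50 overlapped CS_0 and lay narrowly below Shu_0. The median difference over the 12 genes was smaller, at 0.23 in Shu_0 and -0.0327 in Shu_50, each against CS_0. AttD, an attacin, was higher by 1.65 ± 0.36 (adjusted p = 0.0117) at a dim 20.5 ± 10.1 (SD, n = 3), and not called without Shu_50 replicate 3 (adjusted p = 0.0627).

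Fat body markers had 3 of 14 genes higher and 2 lower. Their mean log2 signal was 9.91 to 10.03 in CS_0 and 10.20 to 10.27 in Shu_50, without overlap. It was 10.28 to 10.39 in Shu_0 and 9.82 to 9.94 in CS_50. The list's mean, but not every marker, thus stood high in the mutant with and without the drug and not in the treated wild type. The median over the 14 genes was 0.109 in Shu_50 against CS_0. Tsf1 and apolpp, given above as lower, are on this list. The amino acid breakdown list, like the serine list, stood high in both treated groups instead, at 9.24 to 9.34 in CS_50 and 9.34 to 9.41 in Shu_50 against 9.02 to 9.10 in CS_0 and 9.04 to 9.08 in Shu_0. Fbp2, a dim fat body marker, read 13.9, 7.34 and 23.9 in CS_0 and 45.1, 50.9 and 76.5 in Shu_50 (log2 1.63 ± 0.26 (SE), adjusted p = 0.000977). Obp99b, an odorant binding protein gene of the same list, read 182, 134 and 158 in CS_0 and 259.5, 280.0 and 423 in Shu_50 (log2 0.97 ± 0.15 (SE), adjusted p = 0.000756). Cuticle genes had 6 of 28 higher and none lower, 4 without CS_0 replicate 3, with a median of -0.0322. Cpr64Ac, Cpr76Bd and Cpr72Ec rose by 0.81 ± 0.15, 0.73 ± 0.12 and 0.69 ± 0.10 (adjusted p = 0.00341, 0.00189 and 0.000397). Of 12 glial genes 3 were lower and 1 without CS_0 replicate 3. The list's mean was 9.40 to 9.50 in CS_0 and 9.29 to 9.36 in Shu_50.

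All 26 proteasome genes had a log2 difference above 0, from 0.0542 to 0.294 with a median of 0.189. At adjusted p under 0.05 by limma 3 were called higher, and without CS_0 replicate 3 none was. At an unadjusted p under 0.05, 19 were higher. The list's mean was 8.64 to 8.75 in CS_0 and 8.87 to 8.89 in Shu_50, and CS_0 replicate 3 was the lowest of the 12 arrays. In 54 genes of oxidative phosphorylation, by contrast, 2 were higher (1 without CS_0 replicate 3) and 1 lower and the median was 0.0082. For the eIF-4a control, whose 3' over 5' signal is a sign of RNA quality, the log2 ratio was 2.66 to 2.96 in CS_0 and 2.45 to 2.67 in Shu_50. It was highest in CS_0 replicate 3. The actin ratio was 1.18 to 1.28 in CS_0 and 1.1 to 1.26 in Shu_50. That of GAPDH was 0.997 to 1.08 and 0.77 to 1.04. For both, CS_0 replicate 3 lay between the other CS_0 arrays. The part of RNA quality in these small shifts was not tested.

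**Figure D5:**
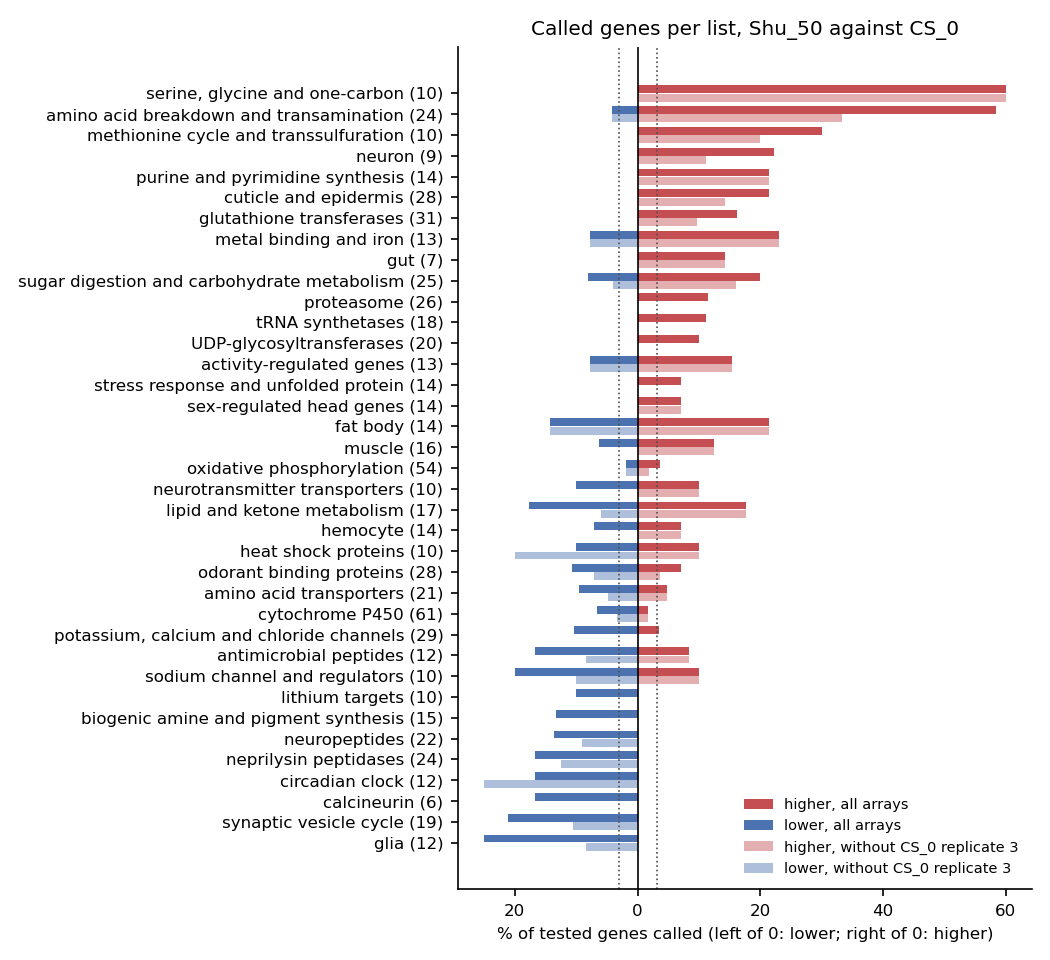
Percent of tested genes of each list called lower (left of 0) and higher (right of 0) in Shu_50 against CS_0, with all arrays (dark) and without CS_0 replicate 3 (light); numbers in brackets are genes tested and dotted lines are the shares over all probe sets, 3.11% higher and 3.00% lower. Serine, glycine and one-carbon genes keep 6 of 10 higher, while proteasome calls go from 3 to 0.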

How the data were processed

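RNA of whole fly heads had been hybridised to 12 Affymetrix arrays with a standard labelling protocol, per the labels; the software that made the probe set values is not given in the sources used here. The deposited values are linear intensity, 1 value per probe set and array. All 12 arrays had a mean of 150.005 after trimming 2% at each end, and their medians differed by at most 1.08-fold, so the deposited scaling was kept. Groups came from the array titles. For CS_50 replicate 2 the description gives sample 1 and the title gives 2, and the title was used.

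Values were taken as log2(intensity + 6.16), the offset being the 25th percentile of all values. Of 18952 probe sets, 183 controls were left out, and 11261 in the upper 60% by mean log2 (signal of at least 11.5, the 40th percentile) entered the tests. Of these, 9613 named 1 gene, 275 several and 1373 none, by the platform's annotation with symbols updated through Entrez numbers to a RefSeq table of Release 6. Means of 4 groups were fitted with limma 3.58.1 in R 4.3.3 (lmFit, eBayes with an intensity trend, 8 residual degrees of freedom, two-sided), with Benjamini-Hochberg adjustment over all tested probe sets. Errors after ± are SE of the fit, with 3 arrays per group, unless given as SD. A fold is on the log2(intensity + offset) scale and understates changes of dim probe sets. The number of arrays limits the precision. The procedure was tested on simulated data.

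Named genes are para and List, the 15 largest rises and 15 largest falls without overlap, the 8 of lowest p in each of the 4 classes, and up to 4 called members of each list. Members, lists and this rule were chosen with earlier results of these data known. The fit was repeated after quantile normalization, with an offset of 0 or doubled (12.3), unfiltered or filtered at the 60th percentile, with eBayes lacking its trend, with array weights, on the compared arrays alone, with a replicate block, with each array left out, and, chosen after seeing the data, CS_0 replicate 3 and Shu_0 replicate 1 left out together. Figures were drawn with matplotlib 3.10.9 in Python 3.11.15.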

Additional observations from a re-analysis of the deposited data

How the results depend on the processing

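Without the intensity trend, calls numbered 288 for Shu_50 against CS_0, 59 for Shu_0 against CS_0, 91 for Shu_50 against Shu_0, 44 for CS_50 against CS_0 and 25 for Shu_50 against CS_50, and the classes held 36 remaining, 23 no longer called, 2 reversed and 60 added. Without CS_0 replicate 3 and Shu_0 replicate 1 the same counts were 380, 31, 140, 89 and 68 and, for the classes, 26, 5, 2 and 87. With only the arrays compared, Shu_0 against CS_0 had 324 calls and 206 were no longer called. With no filter, CS_50 against CS_0 had 118 and 20 were reversed. Array weights gave 132 for Shu_50 against CS_50. The root mean square difference was 0.225 with no offset and 0.182 to 0.211 with single arrays left out. With each array left out in turn, calls ranged from 379 to 764 for Shu_50 against CS_0, 129 to 691 for Shu_0 against CS_0, 127 to 238 for Shu_50 against Shu_0, 76 to 229 for CS_50 against CS_0 and 30 to 68 for Shu_50 against CS_50. The classes ranged from 87 to 284 remaining, 31 to 410 no longer called, 4 to 54 reversed and 91 to 123 added. The cause was not tested.

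The labels do not say whether replicate numbers pair the samples, and the values do not settle it. Deviations of same-numbered arrays correlated at -0.0649 to 0.0915 and those of other numbers at -0.0751 to 0.0715. Each of the 3 Shu_50 arrays correlated best with its own number in CS_0, though weakly (0.0224 to 0.0357). The main fit took no account of the numbers. With the replicate block, calls were 706, 548, 236, 182 and 100 in the order above, and the classes held 255, 290, 45 and 128.

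Of 129 named probe sets called in Shu_50 against CS_0, 70 were called under every alternative that tested them, 50 lost the call without some single array and none reversed. Uncalled differences changed sign at 3 genes as single arrays were left out. List at 1626311_at ranged from -0.31 to 0.28, Acp65Aa from -0.16 to 0.0229 and Pepck1 from -0.0945 to 0.10. Acp65Aa stood at 0.0229 without both outlying arrays, and Pepck1 at -0.0034 with quantile normalization. Dim probe sets near the offset limit the sizes of the largest falls.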
